A study of Homo sapiens with 4 samples.

Results

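The replication-dependent histone genes were examined in SK-N-SH cells overexpressing the long noncoding RNA (lncRNA) *RP5-998N21.4*. The genes were chosen by name, as every gene whose symbol begins with HIST, a cluster number from 1 to 4 and the letter H, leaving out 14 symbols that end in P or PS and digits. This gave 75 of the 57820 genes in the table. They comprise 6 H1, 17 H2A, 23 H2B, 14 H3 and 15 H4 genes. The HIST1 cluster on chromosome 6 holds 55 of them, HIST2 and HIST3 on chromosome 1 hold 15 and 4, and HIST4 on chromosome 12 holds 1. The annotation used here calls 5 of these 75 genes something other than protein coding (*HIST2H2BA*, *HIST2H2BB*, *HIST2H2BC*, *HIST2H2BD* and *HIST3H2BA*).

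SK-N-SH cells are a human neuroblastoma line that has long been established in culture. RNA was sequenced from SK-N-SH cells that received a lentivirus with an insert of *RP5-998N21.4*, driven by the EF1a promoter (OE, 2 libraries), and from SK-N-SH cells that received the empty lentivirus vector (vector control, also called control below, 2 libraries). Both groups therefore carry a lentivirus, and the titles of the control libraries call them WT. The sources do not say whether the libraries of a group came from separate cultures, so each p-value below measures the spread between these libraries, which may be technical. As a check of the labels, *RP5-998N21.4* had 32 and 33 counts with the empty vector and 2407 and 2808 in OE. Of 15 markers of sympathetic neuroblastoma cells, 14 had a mean above 1 CPM and *TH* had 0 counts in every library, while 0 of 8 markers of other tissues reached that level. CPM are counts scaled to a common library size after normalization.

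Replication-dependent histones package newly copied DNA. Their genes lie in clusters, most have no intron, and they are transcribed mainly during S phase. Histone H2A, H2B, H3 and H4 form the nucleosome core, and H1 binds the linker DNA between cores. The mRNAs normally end in a short stem-loop in place of a poly(A) tail. The stem-loop is bound by SLBP, and the transcript is cut just behind it. Some of these genes can also give longer, polyadenylated transcripts, in particular in cells that have left the cell cycle. The labels name the Illumina TruSeq RNA kit, which in its usual form selects poly(A) RNA. Whether that step was used is not given in the sources used here.

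The stem-loop sequences are shown because they define the usual end of these mRNAs and because the transcripts described below either end at them or run past them. The histone stem-loop consensus (GG, any pair of bases, CTTTT, any base, AG, any pair of bases, CC) was searched on the gene's own strand in hg19, with gene positions from the GENCODE annotation lifted to GRCh37. The search covered 120 bases after the stop codon, or after the gene's end where no coding exon was annotated, as in *HIST2H2BA* and *HIST3H2BA*. The consensus was found in 66 of the 75 genes. *HIST1H2BG*, *HIST1H2BF* and *HIST1H4F* had no hg19 position and could not be searched. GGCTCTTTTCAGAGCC was present in 41 genes of the H1, H2A, H2B and H3 classes, and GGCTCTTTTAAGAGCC in 9 genes of the same classes. All 13 H4 genes with a match had a stem beginning GGCCC, in 9 genes as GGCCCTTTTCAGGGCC and in 4 genes as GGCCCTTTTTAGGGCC. In the lines below the capitals mark the stem-loop, given with 5 bases on each side in hg19.
HIST1H2BJ (chr6:27100100-27100115, minus strand): ctaacGGCTCTTTTAAGAGCCaccca
HIST1H2BC (chr6:26123700-26123715, minus strand): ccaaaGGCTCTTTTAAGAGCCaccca
HIST1H3G (chr6:26271151-26271166, minus strand): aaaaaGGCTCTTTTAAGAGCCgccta
HIST1H2AC (chr6:26124897-26124912, plus strand): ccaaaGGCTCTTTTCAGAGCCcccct
HIST2H2BE (chr1:149857738-149857753, minus strand): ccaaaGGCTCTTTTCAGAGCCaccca
HIST1H2BN (chr6:27806868-27806883, plus strand): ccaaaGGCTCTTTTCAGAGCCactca
HIST1H4I (chr6:27107433-27107448, plus strand): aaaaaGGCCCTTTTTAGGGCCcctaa
HIST4H4 (chr12:14923658-14923673, minus strand): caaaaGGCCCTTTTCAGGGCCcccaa

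Histone RNA made up a small part of every library. Total counts were from 23785164 to 28307591 per library, and the 75 genes together had 20796 and 20950 counts in the controls and 18173 and 20427 counts in OE. This was 0.0874% and 0.0869% of all counts in the control and 0.0739% and 0.0722% in OE. For comparison, some abundant RNAs that lack a poly(A) tail were nearly absent, on a list chosen after the values were seen. *RN7SK* had 24 and 36 counts in the controls and 19 and 20 in OE, so its OE libraries were the lower ones (log2 fold change -0.82, unadjusted p = 0.0863, edgeR). *SCARNA2* had 4 and 8 counts in the controls and 0 and 0 in OE, *RMRP* had at most 5 in a library, and *RNU4-2* had 0 in all 4 libraries. *RN7SL1*, which has many near-identical copies in the genome, had 1619 and 2344 counts in the controls and 2309 and 2139 in OE. Of the 9 RNAs on the list, 4 were tested and 0 were called at an unadjusted p under 0.05. With 10.7% of all tested genes lower and 10.1% higher, 0 calls among so few is near the background. The summed level of the list was 144 and 196 CPM in the controls and 188 and 138 CPM in OE. How far the library preparation sets the histone counts, or differs between the groups, was not tested.

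Of the 75 genes, 45 passed edgeR's filter on low counts and were tested. A further 21 had counts but were not tested, with at most 17 counts in any library, and 9 had 0 counts in all 4 libraries (*HIST1H1A*, *HIST1H2AA*, *HIST1H2BA*, *HIST1H4A*, *HIST1H4F*, *HIST1H4L*, *HIST2H2AA3*, *HIST2H2AA4* and *HIST2H3C*). A count of 0 in a library allows up to 3 counts, which is from 0.104 to 0.129 CPM here. These limits cover counting error only. *HIST1H2AA* and *HIST1H2BA* are known as testis-expressed genes.

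Over all 75 genes, summed histone CPM was 893 and 892 in the controls and 724 and 706 in OE. Both OE libraries thus lay below both control libraries, and the ratio of the means was 0.801, a difference of -19.9%. The group means were 892 ± 1.05 CPM (SD, n = 2) and 715 ± 12.8 CPM (SD, n = 2). The smallest two-sided p that an exact permutation of 2 and 2 libraries allows is 0.333, so no test of the sum was run. A smaller share of cells in S phase and less histone RNA per S-phase cell cannot be told apart in such bulk libraries. The 5 genes with the most counts (*HIST1H2BK*, *HIST1H1C*, *HIST1H2AC*, *HIST2H2BE* and *HIST1H2BD*) held 638 and 648 CPM in the controls and 533 and 522 CPM in OE. Without these 5 genes, the sum was 255 and 243 CPM in the controls and 192 and 185 CPM in OE.

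The sums are given by class as a description, since the classes were not tested against each other and no order of the classes is read from them. Summed H2B RNA was 455 and 453 CPM in the controls and 344 and 345 CPM in OE (-24.2%). Summed H2A RNA was 236 and 222 CPM in the controls and 183 and 180 CPM in OE (-20.7%). H3 genes had far fewer counts, and their sum was 21.8 and 24.6 CPM in the controls and 15.5 and 15.2 CPM in OE (-33.7%). In these 3 classes the groups did not overlap and lay further apart than either group's own libraries. Summed H1 RNA was 140 and 152 CPM in the controls and 139 and 131 CPM in OE, so the groups nearly touched. Summed H4 RNA was 40.9 and 38.9 CPM in the controls and 42.6 and 35.2 CPM in OE, and the groups overlapped. By cluster, the sums differed by -18.4% in HIST1, -26.1% in HIST2 and -24.2% in HIST3.

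**Figure D1:**
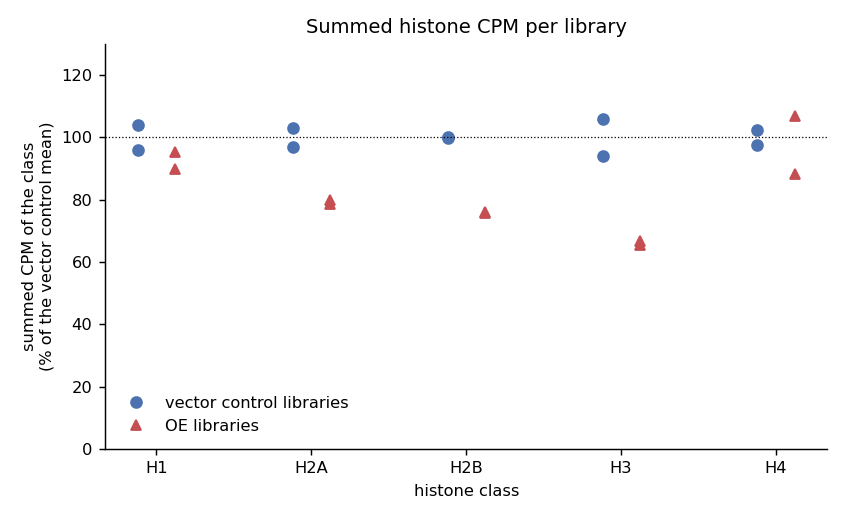
Summed CPM of each histone class in each library, as a percentage of that class's vector control mean (y axis, from 0), with circles for the 2 vector control libraries and triangles for the 2 OE libraries. The OE libraries lie below both vector control libraries in H2A, H2B and H3, just below in H1, and on both sides of them in H4.

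The test compared OE with control for each gene in edgeR's quasi-likelihood fit over all 20528 tested genes, with Benjamini-Hochberg adjustment over all of them. At an unadjusted p under 0.05, 13 of the 45 tested histone genes (28.9%) were lower in OE, where 10.7% of all tested genes were. At the same threshold 1 gene (2.22%) was higher, where 10.1% of all tested genes were. The median log2 fold change was -0.34 over the 45 genes and 0.01 over all tested genes, and 35 of the 45 had a negative log2 fold change. Both OE libraries lay below both control libraries in 24 of the 45 genes (27.6% of all tested genes), and above them in 3 (27.8% of all tested genes).

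No histone gene reached an adjusted p under 0.05 in edgeR. With the cut-offs of the study (absolute log2 fold change over 0.5 and adjusted p under 0.01), edgeR called 0 of the 45 and 0.0% of all tested genes. At an adjusted p under 0.05 it called 0 of the 45 and 0.594% of all tested genes. The smallest adjusted p was 0.0629, that of *HIST1H2BJ*. DESeq2, the tool the study used, called 7 of the 45 lower (4.42% of all tested genes) and 1 higher (4.35%) with the cut-offs of the study. A low-count gene can pass the filter through the higher group alone, so the counts above describe the genes that passed and no others. Among the 37 tested histone genes whose mean over all 4 libraries reached 1 CPM, a choice that does not favour either group, the same 13 were lower (35.1%), where 12% of all tested genes with that mean were. Of the 10 whose mean reached 10 CPM, 7 had both OE libraries below both controls, where 33.6% of all tested genes with that mean did, and 0 had both above.

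**Figure D2:**
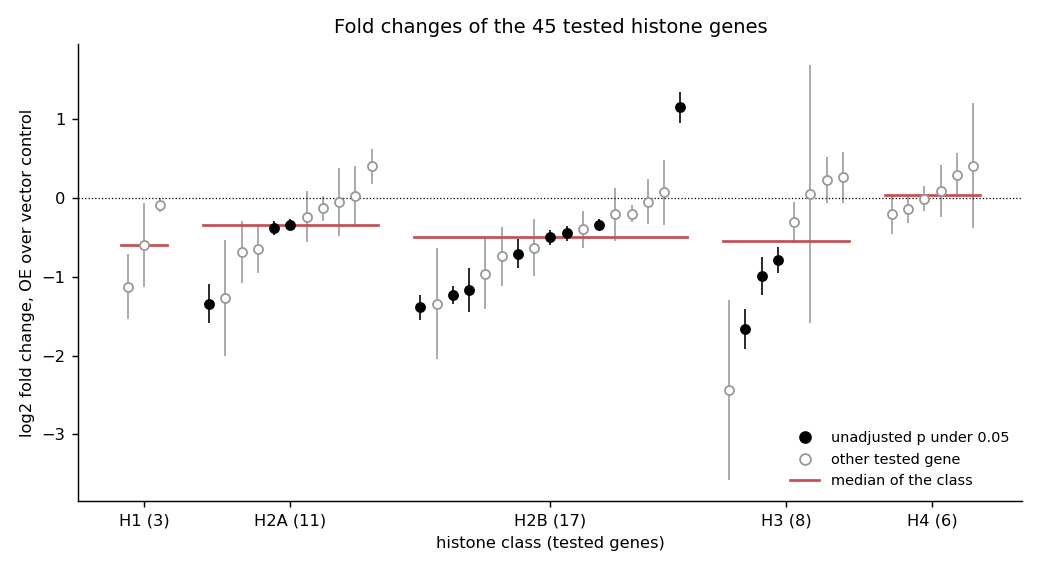
Log2 fold change of OE over vector control (y axis, error bars are standard errors from edgeR) for the 45 tested histone genes, grouped by class (x axis, number tested in parentheses), with filled points for an unadjusted p under 0.05 and a red line at the class median. The medians are -0.60 in H1, -0.34 in H2A, -0.50 in H2B, -0.55 in H3 and 0.04 in H4, and no H1 or H4 gene has a filled point.

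In the H2B class, the largest, 7 of 17 tested genes were lower and 1 higher at an unadjusted p under 0.05 (10.7% and 10.1% of all tested genes). *HIST1H2BJ* (chr6:27093676-27100574 in hg19, minus strand) had 450 and 453 counts in the controls and 211 and 232 counts in OE, or 19.3 and 19.3 CPM against 8.41 and 8.02 CPM. Both OE libraries were far below the controls, and its log2 fold change came to -1.23 (standard error, SE, 0.117, unadjusted p = 0.000643, edgeR). *HIST1H2BC* (chr6:26086545-26124154, minus strand) had 236 and 283 counts in the control and 104 and 124 in OE. Its log2 fold change was -1.39 (SE 0.164, unadjusted p = 0.0014, edgeR). The groups did not overlap in either gene, and the smaller control value of each was over the larger OE value by more than the spread within a group.

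The H2B genes with the most counts differed less. *HIST1H2BK* (chr6:27114140-27114634, minus strand) was at 214 and 229 CPM in the controls and at 181 and 170 CPM in OE, a log2 fold change of -0.34 (unadjusted p = 0.0129, edgeR). *HIST2H2BE* (chr1:149856009-149858232, minus strand) was at 83.4 and 79.1 CPM in the control and at 54.8 and 59.8 CPM in OE, a log2 fold change of -0.50 (unadjusted p = 0.00777, edgeR). Neither gene's groups overlapped. *HIST1H2BD* was at 54.9 and 47.8 CPM in the control and at 44.6 and 45.2 CPM in OE, and its unadjusted p of 0.158 did not pass.

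Among the H2B genes with fewer counts, *HIST1H2BG* was at 6.36 and 5.23 CPM in the control and 3.47 and 3.63 CPM in OE (log2 fold change -0.71, unadjusted p = 0.0211, edgeR). *HIST3H2BB* had 39 and 49 counts in the control and 22 and 23 in OE (log2 fold change -1.17, unadjusted p = 0.0155, edgeR). In both genes the OE libraries were the lower ones, on few counts. *HIST2H2BB*, the H2B gene placed nearest to the overexpressed RNA by the annotation used here, is described further below. The other H2B genes had unadjusted p-values above 0.05, and their log2 fold changes were negative except in *HIST2H2BD* (0.07). Those of *HIST2H2BD*, *HIST2H2BC* (-0.05) and *HIST2H2BA* (-0.21) turned with a library left out.

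*HIST1H2BN* (chr6:27806323-27823487, plus strand) was the only tested histone gene higher in OE at an unadjusted p under 0.05. It had 52 and 64 counts in the controls and 133 and 165 in OE, or 2.23 and 2.72 CPM against 5.30 and 5.70 CPM (log2 fold change 1.15, SE 0.194, unadjusted p = 0.00501, edgeR). The whole difference lay on the transcript ENST00000606613.1, which had 0 and 0 counts in the controls and 89 and 120 in OE. The OE mean was 30.1-fold over the limit of 3 counts in the larger control library. The transcript has 3 exons and 4137 bases and ends 16604 bases past the stem-loop, so a count on it need not come from the histone coding exon. On the other transcripts of *HIST1H2BN* together, a split made after the values were seen, the control libraries had 52 and 64 counts and the OE libraries 44 and 45, or 2.23 and 2.72 CPM against 1.75 and 1.56 CPM.

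**Figure D3:**
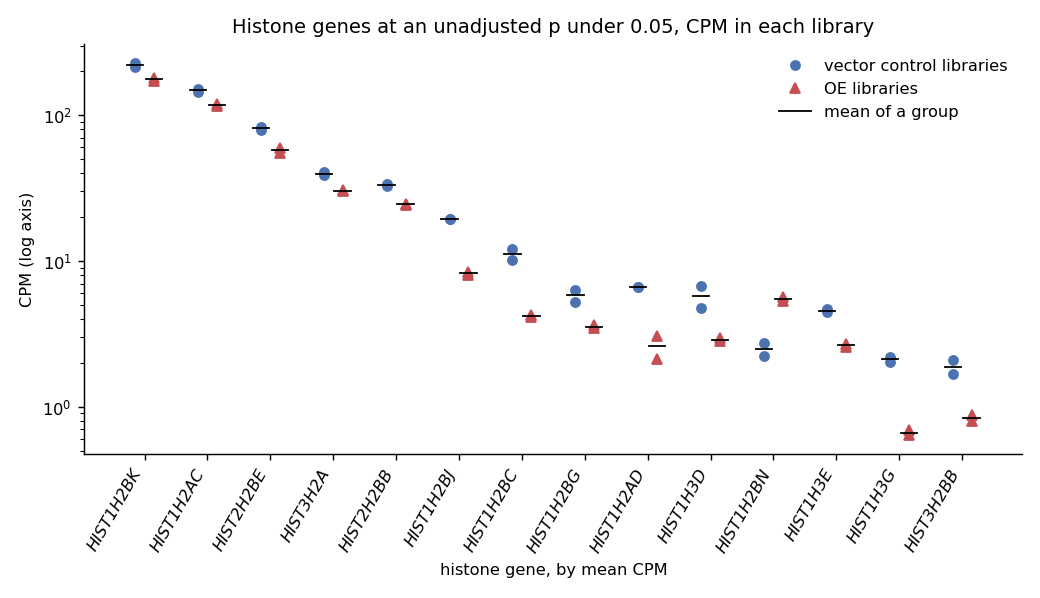
CPM (log axis) in each library of the 14 histone genes at an unadjusted p under 0.05, ordered by mean CPM, with circles for vector control, triangles for OE and a line at each group's mean. In 13 genes both OE libraries lie below both vector control libraries, and in *HIST1H2BN* both lie above.

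In the H2A class, 3 of 11 tested genes were lower and 0 higher at an unadjusted p under 0.05 (10.7% and 10.1% of all tested genes). *HIST1H2AC* (chr6:26124373-26139344, plus strand) was at 152 and 145 CPM in the controls and at 116 and 119 CPM in OE, a log2 fold change of -0.34 (SE 0.0714, unadjusted p = 0.0105, edgeR). *HIST3H2A* had 944 and 908 counts in the control and 771 and 867 in OE (log2 fold change -0.38, unadjusted p = 0.0161, edgeR). *HIST1H2AD* (chr6:26199012-26199521, minus strand) had 154 and 155 counts in the control and 77 and 62 in OE (log2 fold change -1.34, unadjusted p = 0.0063, edgeR). In each of these 3 genes the groups did not overlap. *HIST1H2AG* was at 24.5 and 19.8 CPM in the control and at 21.2 and 19.4 CPM in OE, and its groups overlapped (unadjusted p = 0.464).

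In the H3 class, 3 of 8 tested genes were lower and 0 higher at an unadjusted p under 0.05 (10.7% and 10.1% of all tested genes). *HIST1H3G* (chr6:26271146-26271641, minus strand) had 47 and 52 counts in the controls and 16 and 20 in OE, a log2 fold change of -1.66 (SE 0.255, unadjusted p = 0.00357, edgeR). *HIST1H3D* had 111 and 158 counts in the control and 71 and 85 in OE (log2 fold change -0.99, unadjusted p = 0.0169, edgeR). *HIST1H3E* had 109 and 105 counts in the control and 68 and 75 in OE (log2 fold change -0.79, unadjusted p = 0.0109, edgeR). The OE libraries were below the controls in all 3. *HIST1H3C* had the most negative log2 fold change of the tested histone genes, -2.44, on 13 and 11 counts in the control and 0 and 5 in OE, and its unadjusted p of 0.104 did not pass. Its SE was 1.14, and the value lay between -6.63 and -1.54 with a library left out.

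No H1 or H4 gene passed an unadjusted p of 0.05 in edgeR, of 3 and 6 tested, and DESeq2 called 0 of them with the cut-offs of the study. With 10.7% of all tested genes lower and 10.1% higher, 0 calls among so few genes is near the background. *HIST1H1C*, which held nearly all H1 counts, was at 133 and 147 CPM in the controls and at 136 and 128 CPM in OE (log2 fold change -0.09, SE 0.0912). *HIST1H1D* had 89 and 76 counts in the control and 54 and 31 in OE (log2 fold change -1.13, unadjusted p = 0.055, edgeR). Its OE libraries were both lower but differed from each other. *HIST1H4H*, with the most counts of the H4 class, was at 22.9 and 20.9 CPM in the control and at 24.1 and 19.5 CPM in OE (log2 fold change -0.01, SE 0.158). *HIST4H4* was at 6.01 and 6.26 CPM in the control and at 6.30 and 4.29 CPM in OE. The groups of *HIST1H1C*, *HIST1H4H* and *HIST4H4* overlapped.

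The calls varied in how far they rested on single libraries. Of the 14 genes, 8 kept an unadjusted p under 0.05 with each library left out in turn (*HIST1H2AC*, *HIST2H2BE*, *HIST2H2BB*, *HIST1H2BJ*, *HIST1H2BC*, *HIST1H2AD*, *HIST1H3G* and *HIST1H2BN*). Without the second OE library the unadjusted p from edgeR was 0.0531 for *HIST1H2BK* and 0.056 for *HIST1H3E*. *HIST3H2A* and *HIST1H2BG* passed without the second control library but not without any other, with p-values from edgeR up to 0.0644 and 0.0877. *HIST1H3D* and *HIST3H2BB* passed without the first control library but not without any other, with p-values from edgeR up to 0.0736 and 0.0742.

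Histone genes within a class are much alike, so reads could be shared between them. The sequence from the start codon to the stem-loop was cut into windows of 100 bases for the 66 genes with a stem-loop, and 47 genes shared no window with another of them. This held for *HIST1H2BJ*, *HIST1H2BC*, *HIST1H2AC*, *HIST1H2BK*, *HIST1H2AD*, *HIST3H2A*, *HIST1H3D* and *HIST1H3G*. The share was 15.5% in *HIST2H2BE*, 24.6% in *HIST3H2BB* and 1.45% in *HIST1H2BN*. It was 100% in *HIST2H2AA3*, *HIST2H2AA4*, *HIST2H3A*, *HIST2H3C*, *HIST2H4A* and *HIST2H4B*, whose counts are therefore uncertain. *HIST1H3E*, *HIST1H2BG* and *HIST2H2BB* could not be compared, since no stem-loop was found for them. The exons of *HIST1H2AC*, *HIST1H2AD*, *HIST1H3D*, *HIST2H2BB* and *HIST3H2BB* also overlap those of another gene on the same strand, so how the counting split such reads bears on their values.

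The counts were given per transcript, which tells the transcript they were assigned to and not their position along the gene. Annotated single-exon transcripts ending within 10 bases of the stem-loop held 56.3% and 57.1% of the histone counts in the controls and 59.8% and 58.1% in OE. Single-exon transcripts that run past the stem-loop held from 12.3% to 14.4%, spliced transcripts that run past it from 11.0% to 11.7%, and transcripts that the annotation used here does not hold, from 15.7% to 16.6%. In CPM, the single-exon stem-loop form summed to 503 and 509 in the control and 433 and 410 in OE. The spliced forms that run past it summed to 104 and 104 CPM in the control and 79.6 and 82.1 CPM in OE. Both sums were therefore lower in both OE libraries. Reads in an exon that both forms hold fit either form, so these sums need not measure the forms themselves.

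Single genes, named here after their values were seen, did not all follow these sums. The stem-loop transcript of *HIST1H2BJ* (ENST00000339812.2) had 204 and 204 counts in the controls and 102 and 118 in OE. Its spliced transcript (ENST00000607124.1), which ends 6424 bases past the stem-loop, had 231 and 233 counts in the control and 108 and 112 in OE. The stem-loop transcript of *HIST1H2BC* (ENST00000396984.1) had 200 and 246 counts in the control and 76 and 112 in OE, and its spliced transcript (ENST00000314332.5) had 36 and 37 against 28 and 12. In these 2 genes both forms had fewer counts in both OE libraries. The stem-loop transcript of *HIST4H4* (ENST00000539745.1) had 44 and 53 counts in the control and 76 and 40 in OE, with overlapping groups, while its spliced transcript (ENST00000358064.3) had 96 and 94 against 82 and 84. In *HIST1H2AC*, the stem-loop transcript held from 48.4% to 50.6% of the gene's counts in every library. Reads in a shared coding exon fit either transcript, so such even shares need not measure the forms themselves. In a fit on the single-exon stem-loop transcripts alone, chosen after the values were seen, the log2 fold changes were -1.10 in *HIST1H2BJ*, -1.46 in *HIST1H2BC* and -0.32 in *HIST1H2AC*.

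**Figure D4:**
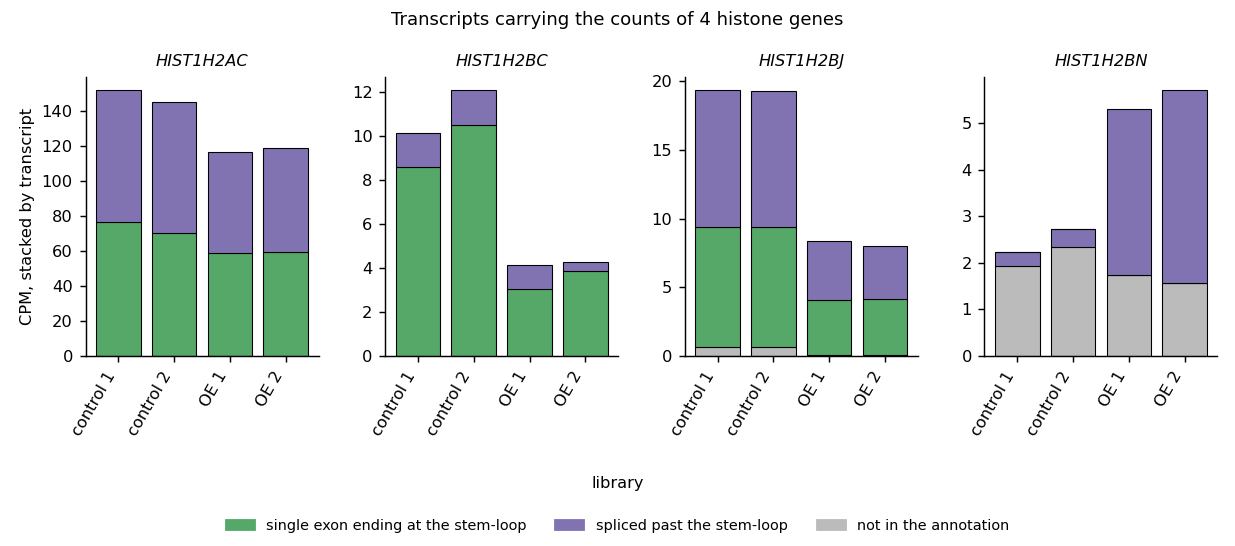
CPM per library (y axis, from 0) of *HIST1H2AC*, *HIST1H2BC*, *HIST1H2BJ* and *HIST1H2BN*, stacked by transcript, with green for single-exon transcripts ending at the stem-loop, purple for spliced transcripts running past it and grey for transcripts not in the annotation. In *HIST1H2BJ* and *HIST1H2BC* both coloured parts are smaller in OE, while in *HIST1H2BN* the purple part is larger in OE.

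Many H2A and H2B genes are transcribed away from each other out of a short shared promoter. In hg19, 12 such pairs had start codons less than 1000 bases apart. *HIST1H2BG* and *HIST1H2BF* had no hg19 position in the annotation, but their RefSeq promoters overlap those of *HIST1H2AE* and *HIST1H2AD* on the other strand, which makes 14 pairs. Both genes were tested in 9 pairs, and their log2 fold changes had the same sign in 8 of these, often with a different size. As 35 of the 45 tested histone genes had negative values, most pairs of them would share a sign, so nothing particular to the pairs is read from this. The exception was *HIST1H2AE*, with 60 and 48 counts in the control and 80 and 84 in OE (log2 fold change 0.40, unadjusted p = 0.154, edgeR), against -0.71 in *HIST1H2BG*. In 3 of the 8 pairs the sign of the H2A gene turned with a library left out, with ranges of -0.28 to 0.03 in *HIST1H2AG*, -0.27 to 0.40 in *HIST1H2AK* and -0.58 to 0.32 in *HIST1H2AM*. *HIST1H2AG* and *HIST1H2BJ*, 322 bases apart, were at -0.13 and -1.23. *HIST1H2AC* and *HIST1H2BC*, 329 bases apart, were at -0.34 and -1.39. *HIST3H2A* and *HIST3H2BB*, 313 bases apart, were at -0.38 and -1.17. In *HIST1H2AK* and *HIST1H2BN*, 323 bases apart, the values were 0.03 and 1.15, the latter resting on the long transcript described above. Without that transcript *HIST1H2BN* had less CPM in both OE libraries than in both controls. *HIST1H2AD* and *HIST1H2BF* were at -1.34 and -0.74. *HIST2H2AC* and *HIST2H2BE*, 335 bases apart, were at -0.65 and -0.50. *HIST1H2AH* and *HIST1H2BK*, 331 bases apart, were at -1.27 and -0.34, the former on 19 and 14 counts in the control and 3 and 13 in OE (SE 0.738, unadjusted p = 0.165, edgeR). *HIST1H2AM* and *HIST1H2BO*, 314 bases apart, were at -0.05 and -0.63. Both genes had an unadjusted p under 0.05 in 2 pairs, *HIST1H2AC* with *HIST1H2BC* and *HIST3H2A* with *HIST3H2BB*. The differences within pairs were not tested.

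The promoters were compared because of these pairs. In the 250 bases before the RefSeq start (GRCh38.p14, 65 of the 75 genes matched), 3 motifs were searched on both strands. The motif ATTTGCAT, the octamer bound by OCT1, was in 14 of 18 H2B, 11 of 16 H2A and 1 of 12 H3 promoters, and in 0 of 6 H1 and 0 of 13 H4 promoters, against 1.63% of 35116 RefSeq promoters. The H3 promoter is that of *HIST1H3D*, whose RefSeq start is the same as that of *HIST1H2AD*, so these 250 bases are counted under both genes here and in the counts below. CCAAT was in 55 of the 65 promoters but in only 3 of 13 H4 promoters (32.0% of all promoters), and TATAAA in 43 (10.7% of all promoters). Of the tested genes, 18 had a promoter with the octamer and a median log2 fold change of -0.67, with 8 lower and 0 higher at an unadjusted p under 0.05 (10.7% and 10.1% of all tested genes). The 22 tested genes whose promoter lacked it had a median of -0.17, with 4 lower and 1 higher. The motif goes with the histone class and the genes of a pair share promoter DNA, so these groups are a description. The promoters of *HIST1H2BJ*, of *HIST1H2BN* and of *HIST1H4H* are shown as those of the gene with the smallest adjusted p, the gene that was higher and the H4 gene with the most counts. The capitals mark the 3 motifs on either strand.
HIST1H2BJ (chr6:27132796-27133045, minus strand): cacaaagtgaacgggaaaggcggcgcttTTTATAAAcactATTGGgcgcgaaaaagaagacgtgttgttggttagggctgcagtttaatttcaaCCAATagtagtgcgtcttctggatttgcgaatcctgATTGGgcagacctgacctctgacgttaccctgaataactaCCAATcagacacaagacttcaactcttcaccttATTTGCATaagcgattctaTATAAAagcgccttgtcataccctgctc
HIST1H2BN (chr6:27838319-27838568, plus strand): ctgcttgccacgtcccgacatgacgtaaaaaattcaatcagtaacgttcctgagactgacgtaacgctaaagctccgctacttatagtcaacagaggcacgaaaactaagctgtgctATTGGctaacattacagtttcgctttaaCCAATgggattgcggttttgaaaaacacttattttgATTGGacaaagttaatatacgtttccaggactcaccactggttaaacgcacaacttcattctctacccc
HIST1H4H (chr6:26285535-26285784, minus strand): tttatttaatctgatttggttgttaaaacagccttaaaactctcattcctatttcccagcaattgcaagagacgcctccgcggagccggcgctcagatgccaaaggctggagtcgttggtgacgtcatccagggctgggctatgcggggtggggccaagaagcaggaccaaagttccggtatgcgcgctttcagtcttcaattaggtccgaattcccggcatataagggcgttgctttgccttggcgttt
The first holds all 3 motifs, the second holds CCAAT on either strand but not the other motifs, and the third holds none of these letters.

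The overexpressed RNA comes from within the HIST2 region. *RP5-998N21.4* lies at chr1:149372292-149379646 on the minus strand of hg19. This is inside the span found for *HIST2H2BB* (chr1:149369722-149399226, minus strand), in a gene that the annotation used here calls a lncRNA. That span is of the transcript ENST00000609585.1 alone, which held 9 or 10 of the counts of *HIST2H2BB* in each library. ENST00000449108.1, which held the other counts, has no position in that annotation, so where most counts of *HIST2H2BB* lie is not known here. *HIST2H2BB* had 787 and 766 counts in the controls and 610 and 707 in OE, or 33.8 and 32.6 CPM against 24.3 and 24.4 CPM. It was thus lower in both OE libraries, with a log2 fold change of -0.45 (SE 0.0936, unadjusted p = 0.0104, edgeR). *HIST2H2BF* (chr1:149754245-149783928, minus strand) spans *RP11-196G18.3*, a near-identical copy of the lncRNA. It was at 10.5 and 9.07 CPM in the control and at 6.18 and 8.61 CPM in OE (log2 fold change -0.40, unadjusted p = 0.158, edgeR). At the level of sequence, the lncRNA and its copies shared no stretch of 25 bases with the transcripts of the 46 histone genes whose transcript sequence was at hand. These do not include ENST00000449108.1, the transcript that held all but 9 or 10 of the counts of *HIST2H2BB* in each library. *HIST2H2BB* also overlaps exons of another gene on the opposite strand, so its counts are uncertain.

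The copy *RP11-439A17.9*, on the same chromosome, had 0 and 4 counts in the controls and 4515 and 5365 in OE, and *RP11-196G18.3* had 139 and 112 against 92 and 141. Counts of the overexpressed RNA may thus be split between *RP5-998N21.4* and *RP11-439A17.9*. *HIST2H2BA*, 19276 bases from *RP11-439A17.9*, had 31 and 48 counts in the control and 33 and 46 in OE. Of the other histone genes within 50 kb of a copy, *HIST2H3D* had 70 and 47 counts against 80 and 78, *HIST2H4A* had at most 4 counts in a library, and *HIST2H2AA3* and *HIST2H3C* had 0 counts in all 4 libraries. Of these 7 neighbours, 4 were tested (*HIST2H2BB*, *HIST2H2BF*, *HIST2H2BA* and *HIST2H3D*). At an unadjusted p under 0.05 in edgeR, 1 of the 4 was lower, *HIST2H2BB*, and 0 were higher, where 10.7% and 10.1% of all tested genes were.

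The study's list of mRNAs related to *RP5-998N21.4* in human blood holds 10 of these histone genes. Few of them had many counts in these libraries. Of the 10, 2 had a mean above 1 CPM (*HIST1H2BC* and *HIST3H2BB*), where 37 of all 75 histone genes reached that mean. Whether the library preparation lowered these counts was not tested. Of the 6 that were tested, these 2 were lower in OE as described above and 0 were higher at an unadjusted p under 0.05 (10.7% and 10.1% of all tested genes). *HIST1H2BF* had 24 and 23 counts in the controls and 18 and 14 in OE, and *HIST1H2AL* had 17 and 17 against 13 and 11. Both lay lower in OE without passing (unadjusted p = 0.121 and 0.159, edgeR). *HIST1H4D* had 12 and 3 counts in the control and 12 and 11 in OE, and *HIST1H3B* had 4 and 10 against 16 and 0. *HIST1H4J* had 0 and 8 counts in the control and 6 and 0 in OE, *HIST1H2BB* had at most 5 counts in a library, *HIST1H4B* at most 4, and *HIST1H4L* had 0 in all 4 libraries.

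Histone genes whose symbols lie outside the naming rule were read on a list of 12, all of them tested. The list was drawn up as replication-independent, but how far each gene is tied to replication was not tested here. At an unadjusted p under 0.05, 5 were lower and 4 higher in OE (10.7% and 10.1% of all tested genes), and the list's median log2 fold change was 0.01. *H1F0*, the H1.0 linker histone that accumulates in differentiated and resting cells, was at 702 and 704 CPM in the controls and at 1490 and 1390 CPM in OE (log2 fold change 1.04, adjusted p = 0.03, edgeR). *H2AFX*, the H2A.X histone that is phosphorylated at DNA breaks, was at 316 and 330 CPM in the control and at 167 and 172 CPM in OE (log2 fold change -0.93, adjusted p = 0.0415, edgeR). In both genes the groups lay far apart. *CENPA*, the H3 variant of centromeres, was at 19.1 and 20.1 CPM against 10.2 and 9.33 CPM (log2 fold change -1.01, unadjusted p = 0.00162, edgeR). *H2AFJ* was at 2.96 and 2.60 CPM against 0.837 and 0.726 CPM (log2 fold change -1.83, unadjusted p = 0.00219, edgeR).

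Most genes that make and carry histones were not called at an unadjusted p under 0.05, and in some of them the OE libraries lay far apart. *NCBP2* was at 232 and 226 CPM in the controls and at 2.71 and 62.2 CPM in OE (log2 fold change -2.82, unadjusted p = 0.141, edgeR). *SUPT16H* went the other way, at 2.66 and 2.43 CPM against 165 and 3.25 CPM (log2 fold change 5.04, unadjusted p = 0.0715, edgeR). Both were named after their values were seen. Among 22 genes of histone mRNA processing and transcription, 1 was lower and 0 were higher at an unadjusted p under 0.05 (10.7% and 10.1% of all tested genes), with a median log2 fold change of -0.05. The gene was *SRRT*, which encodes the cap-binding partner ARS2, with 1164 and 1164 counts in the controls and 895 and 730 in OE (log2 fold change -0.71, unadjusted p = 0.0273, edgeR). *SLBP*, named here after its values were seen, was at 39.9 and 38.8 CPM in the control and at 33.7 and 32.2 CPM in OE (log2 fold change -0.26, unadjusted p = 0.0529, edgeR). *NPAT*, the activator of histone transcription, was at 33.9 and 35.7 CPM against 31.8 and 41.5 CPM, with overlapping groups, and was also named after its values were seen. Of 13 tested histone chaperones, 3 were lower and 0 higher (10.7% and 10.1% of all tested genes). *CHAF1B*, a subunit of the chromatin assembly factor CAF-1, was at 15.5 and 15.2 CPM in the control and at 7.61 and 8.82 CPM in OE (log2 fold change -0.91, unadjusted p = 0.00383, edgeR). *ASF1B* was at 29.5 and 35.6 CPM against 18.5 and 17.3 CPM (log2 fold change -0.86, unadjusted p = 0.00457, edgeR), and *CHAF1A* at 34.6 and 37.6 CPM against 24.9 and 20.5 CPM (log2 fold change -0.67, unadjusted p = 0.0112, edgeR).

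S-phase genes tended to lie lower in OE, as the histone genes did. Of 16 tested S-phase genes, 5 were lower and 0 higher in OE at an unadjusted p under 0.05 (31.2%, where 10.7% of all tested genes were lower), and their median log2 fold change was -0.35. *RRM1*, a subunit of ribonucleotide reductase, was at 53.5 and 50.5 CPM in the controls and at 32.5 and 29.5 CPM in OE (log2 fold change -0.75, unadjusted p = 0.00259, edgeR). The replication genes *GINS2*, *MCM4* and *CDT1* had log2 fold changes of -0.61, -0.51 and -0.44 (unadjusted p = 0.0216, 0.0285 and 0.0391, edgeR). *PCNA*, the sliding clamp, was at 44.8 and 40.8 CPM against 43.2 and 48.8 CPM and *CCNE1*, a cyclin of the G1-to-S step, had 163 and 207 counts against 199 and 220. Both were named after their values were seen, and their groups overlapped. The neuroblastoma markers went the other way. Of 14 tested, 9 were higher and 0 lower at an unadjusted p under 0.05 (10.1% and 10.7% of all tested genes), and their summed level was 950 and 956 CPM in the control and 1460 and 1510 CPM in OE. What part the S-phase genes or the cell state have in the histone values was not tested.

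**Figure D5:**
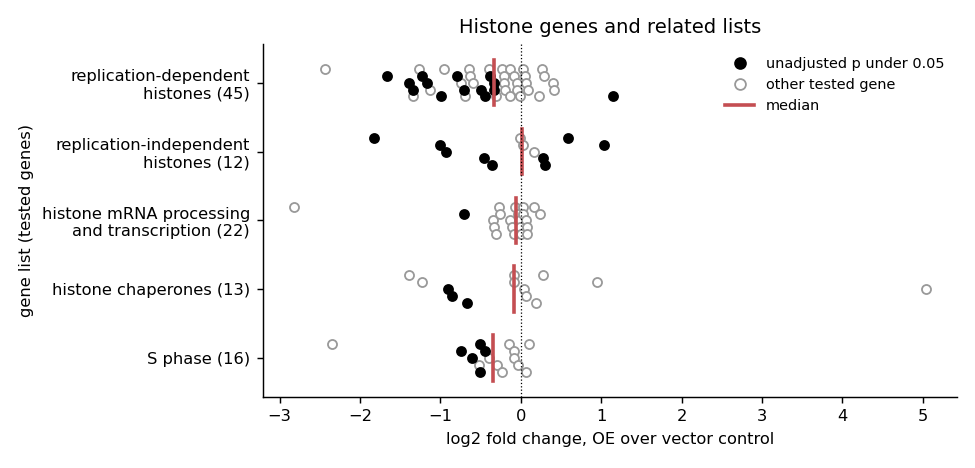
Log2 fold change of OE over vector control (x axis) for the tested genes of 5 lists (y axis, number tested in parentheses), with filled points for an unadjusted p under 0.05 in edgeR and a red line at each median. The replication-dependent histones and the S-phase genes have medians of -0.34 and -0.35, and the medians of the other lists are 0.01, -0.05 and -0.08.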

How the data were processed

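The authors trimmed the reads, mapped them to hg19 and deposited whole-number counts per Ensembl transcript without normalization. The submitters' processing notes list Bowtie2 2.0.4, Picard 2.21.6, StringTie 2.1.6 and DESeq2, with no roles. The counting tool, its annotation release and its use of strand are not given in the sources used here, so reads from antisense partners cannot be told apart. Among the tested members, this touches *HIST1H2BC*, *HIST1H4H*, *HIST2H2BB*, *HIST2H2BF* and *HIST1H2BE*.

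Counts were summed per gene, scaled by TMM (factors from 0.976 to 1.02) and tested with edgeR 4.0.16 in R 4.3.3 (filterByExpr, quasi-likelihood F-test, 2 libraries against 2, no covariates, two-sided, Benjamini-Hochberg adjustment over 20528 genes). Alternatives were RLE and upper-quartile scaling, DESeq2 1.42.0, limma-voom (limma 3.58.1), other count filters, a replicate block, each library left out, the transcript with the highest mean count, and near-identical copies summed. Positions came from GENCODE v44 lifted to GRCh37 (72 of 75 genes), and promoters from RefSeq.

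The members and lists were chosen with earlier results of these data known. Named in full by rule were the 12 tested members with the most CPM, every member at an unadjusted p under 0.05, those within 50 kb of the overexpressed RNA or a copy, and those on the study's blood list. From other lists, at most 4 genes at an unadjusted p under 0.05 were named.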

Additional observations from a re-analysis of the deposited data

How the results depend on the processing

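The count of histone genes lower in OE at an unadjusted p under 0.05 (13) was 14 with DESeq2, limma-voom, the replicate block and genes with at least 1 count in total, and between 10 and 11 with each library left out. It was 13 under the other alternatives, and 1 gene was higher under every alternative run. The median log2 fold change of -0.34 became -0.55 over the 66 genes with at least 1 count in total, where low-count genes enter, and lay between -0.42 and -0.37 with each library left out. The ratio of summed histone CPM (0.801) was 0.824 with upper-quartile scaling, between 0.791 and 0.812 with each library left out, and 0.805 with the top transcript of each gene. The 14 genes at an unadjusted p under 0.05 kept their direction under every alternative run.

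The replicate numbers are shared between the groups, and the sources do not say whether same-numbered libraries were paired. Such libraries did not deviate together (correlation -0.0222 over 14023 genes), which with 2 libraries in a group cannot show that they were unpaired. With the replicate block the median was -0.38.

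Directions turned in 6 of the 25 tested genes that the naming rule gives, none with an unadjusted p under 0.05, and the cause was not tested. *HIST1H3B* (0.05) was at -1.59 with limma-voom, at -0.51 with the replicate block and between -5.94 and 1.08 with a library left out. *HIST1H4H* (-0.01) was at 0.03 with upper-quartile scaling and between -0.17 and 0.14 with a library left out. With a library left out, *HIST1H2AG* lay between -0.28 and 0.03, *HIST1H4D* between -0.27 and 1.71, *HIST2H2BA* between -0.49 and 0.12 and *HIST2H3D* between -0.04 and 0.55. Outside the rule, a further 7 tested histone genes, all with an unadjusted p above 0.05, turned with a library left out: *HIST1H2AI* (-0.51 to 0.08), *HIST1H2AK* (-0.27 to 0.40), *HIST1H2AM* (-0.58 to 0.32), *HIST1H4E* (-0.35 to 0.43), *HIST2H2BC* (-0.34 to 0.30), *HIST2H2BD* (-0.52 to 0.48) and *HIST4H4* (-0.52 to 0.04). A fit with a library left out assumes that the lone library of its group varies like the others. The histone genes with counts that the filter removed had at most 17 counts in a library and all entered the fit of genes with at least 1 count in total.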
